A study of Mus musculus with 2 samples.

Results

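Antisense RNA genes are noncoding genes transcribed from the strand opposite a protein-coding gene. The 129 genes described here are those that were expressed in spleen neutrophils of mouse: each has at least 1 transcript typed antisense and no transcript typed protein_coding, and each reached 1 TPM (the unit of transcript level scaled for length and depth) in both libraries. They were chosen from 3088 genes with an antisense transcript and no protein_coding transcript, among 55536 annotated genes. The measured level thus chose the members, and it is given below as a description. Of the other 2959 candidates, 2120 had no reads in either library, where the limit that 0 reads allow, 3 reads, is 0.166 CPM (depth-scaled counts) in replicate 1 and 0.170 CPM in replicate 2.

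Total RNA was sequenced from primary cells labelled neutrophil, in 2 libraries of 1 group. Both came from B6CASTF1/J males of 59 days, the F1 cross of female C57BL/6 with male CAST/EiJ mice. Input RNA was 300 ng, and ERCC spike-ins were added. Ribosomal RNA was depleted and the kit keeps strand, per the labels. Their biosample labels differ but the donor label is the same, and the labels do not say whether 2 animals were used. Their spread may thus be technical.

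Antisense RNAs start either beside the promoter of a coding gene, inside it, or beyond its end, and many are spliced and polyadenylated like messenger RNAs. Some carry small RNAs that are cut out of the primary transcript. Others are short-lived and are removed in the nucleus by the RNA exosome.

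The libraries held 18836093 and 18444369 estimated reads. All 12 neutrophil markers, among them S100a8, S100a9 and Ly6g, reached 1 TPM in both libraries, with marker medians of 1537 and 1614 TPM. Of the reads of annotated genes, ribosomal RNA genes left out, the members held 0.146% (95% exact interval 0.144 to 0.148%) in the first library and 0.139% (0.137 to 0.141%) in the second. These intervals cover counting error only. Of the candidates 4.18% reached the minimum, beside 2.94% of 5854 lincRNA genes and 46.4% of 22028 genes with a protein_coding type. The members lay on 19 chromosomes, with 13 on chromosome 11 and 12 on chromosome 7.

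The highest member carries a small RNA of the myeloid lineage. F630028O10Rik (ENSMUSG00000078122.4, chromosome X, 96239926 to 96243636 on mm10, plus strand) encloses Mir223, the gene of miR-223, which restrains neutrophil activation and maturation. The microRNA gene lies inside an exon of at least 1 annotated isoform. Its mature sequences, from the RefSeq table on GRCm38.p6 (the mm10 build), are shown because they identify what the transcript carries. Capitals mark the seed, bases 2 to 8, and the arms do not share a seed.
mmu-miR-223-3p: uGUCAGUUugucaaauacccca
mmu-miR-223-5p: cGUGUAUUugacaagcugaguug

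Zfas1, among the highest members (chromosome 2, 167062934 to 167065862, plus strand), is a known host of small nucleolar RNAs, which guide methylation of ribosomal RNA. Its 3 hosted snoRNAs, Gm25878, Gm23201 and Snord12, lie inside exons of at least 1 isoform. Their sequences come from the GENCODE M21 annotation of mm10. Capitals mark the core of box C (TGATG) and box D (CTGA), the motifs that define this snoRNA class.
Gm25878: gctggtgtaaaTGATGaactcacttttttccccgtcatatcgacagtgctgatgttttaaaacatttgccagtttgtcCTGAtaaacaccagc
Gm23201: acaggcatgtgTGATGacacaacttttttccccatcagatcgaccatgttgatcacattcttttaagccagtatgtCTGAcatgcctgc
Snord12: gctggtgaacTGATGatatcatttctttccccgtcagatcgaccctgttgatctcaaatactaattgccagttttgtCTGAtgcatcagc

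In all, 11 members (8.53%) enclosed an annotated small RNA on their own strand, beside 37 (1.25%) of the candidates below the minimum. The microRNA hosts were F630028O10Rik, Gm35853 (Mir1941), Gm15987 (Mir7649), D030055H07Rik (Mir135a-1) and Gm20632 (Gm47311). The snoRNA hosts were Zfas1, 1810032O08Rik (Snord1a, Snord1b and Snord1c), 9330159M07Rik and Rab26os (Snord60), and 2900060B14Rik and B930036N10Rik each enclosed a small nuclear RNA gene. Gm47311 was listed at 1.16 and 0.740 TPM, and every other enclosed small RNA was listed at 0 in both libraries. A deposited TPM cannot be given to a feature of 100 bases or less, and most of these genes are that short. Mir223 (110 bases) and the small nuclear RNA genes (125 and 116 bases) are longer, so the limit does not cover their 0 values. The levels of the members describe the host transcripts and not the small RNAs.

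F630028O10Rik stood at 163 TPM in replicate 1 and 155 TPM in replicate 2, from 9044 and 8441 reads. Of all member reads it held 34.3% (33.7 to 34.9%) in the first library and 34.4% (33.8 to 35.0%) in the second. No coding gene lies on the opposite strand across it, despite its annotated type. Next came Gm28192 at 75.3 and 60.4 TPM, inside Csnk1d (casein kinase 1 delta, 57.3 and 48.8 TPM). The long noncoding RNA Tug1 followed at 45.2 and 41.3 TPM, and its head-to-head neighbour Morc2a, a gene of chromatin silencing, stood at 7.98 TPM in both libraries. Mirt2, described in macrophages as induced by lipopolysaccharide, stood at 42.9 and 37.6 TPM. Spatc1, a sperm centriole gene whose start it overlaps, had 0.280 and 0.220 TPM. These 4 genes kept their order in both libraries.

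Rab10os stood at 24.7 and 23.0 TPM, and Zfas1 at 20.9 and 23.6 TPM. Their order was reversed between the libraries, so they cannot be ranked. Znfx1, which encodes a helicase that senses double-stranded RNA and starts beside Zfas1, stood at 30.9 and 33.4 TPM. 2010016I18Rik (17.4 and 16.4 TPM) crosses the start of the Rab exchange factor gene Dennd2d, which stood at 20.6 and 20.5 TPM. Gm35853 (16.7 and 15.4 TPM) spans the keratin gene Krt80, which stood at 14.7 and 13.6 TPM. Both members thus had levels close to those of the coding genes across from them, with Dennd2d the higher of its pair and Krt80 the lower of its pair in both libraries.

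The members around 10 TPM came in no fixed order. 2310009A05Rik stood at 10.7 and 14.5 TPM beside Pigb, an enzyme gene of GPI anchor synthesis at 11.4 and 12.5 TPM, and which of them was higher depended on the library. 1600010M07Rik (14.1 and 11.01 TPM) encloses the importin gene Ipo7 (22.1 and 24.3 TPM). Gm26740 stood at 13.4 and 11.5 TPM across Raet1e, a gene of a ligand of the killer cell receptor NKG2D, which had 0.860 and 0.590 TPM. Gm20406 (12.6 and 10.2 TPM) lies inside Klhdc4 (26.2 and 20.7 TPM). A protein-coding gene, Gm20388, also runs along its own strand, so its reads are less surely its own. 3110056K07Rik stood at 10.9 and 10.8 TPM, and 5830432E09Rik at 10.2 and 10.1 TPM inside the phosphatase gene Ptpre (72.5 and 67.0 TPM). Zeb2os closed the 15 highest with 10.3 and 8.32 TPM.

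**Figure D1:**
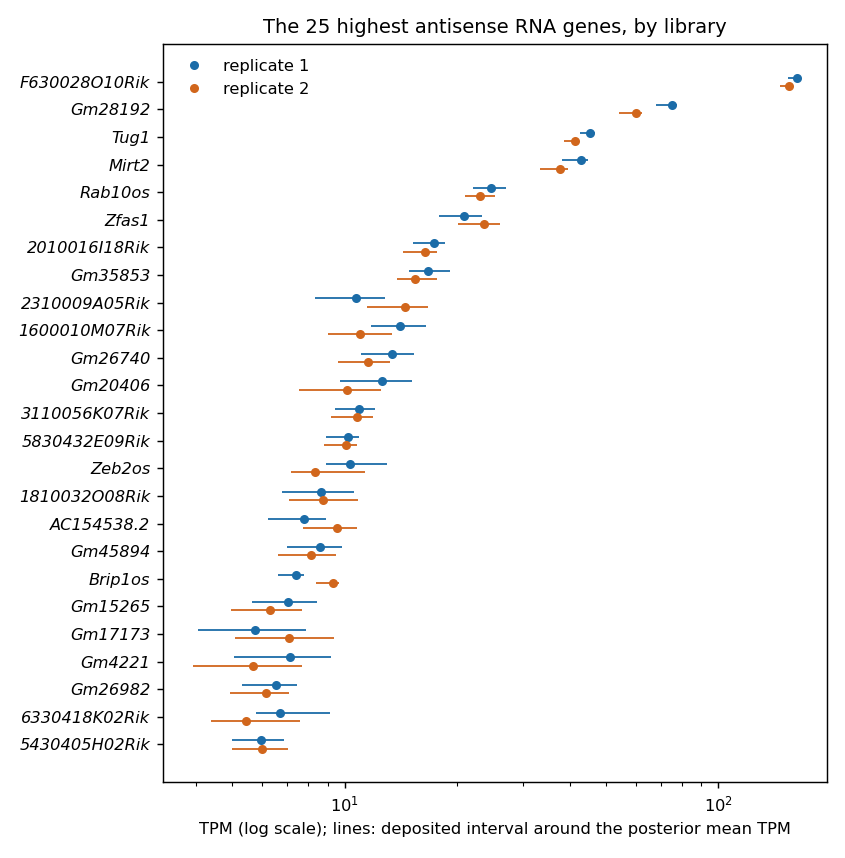
TPM of the 25 highest antisense RNA genes on a log axis, with points for replicate 1 (blue) and replicate 2 (orange) and lines for the deposited interval, which lies around the posterior mean TPM and not around the plotted TPM. F630028O10Rik stands above 150 TPM in both libraries, and the intervals of most genes below Mirt2 overlap those of their neighbours.

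Most members were far lower than these. The median member stood at 2.66 and 2.68 TPM, from median counts of 56 and 49 reads. By mean TPM, 14 members reached 10, 69 lay between 2 and 10, and 46 were under 2. The interval deposited around the posterior mean TPM lay above 1 TPM in both libraries for 89 of 129. For F630028O10Rik the TPM itself lay above that interval, which ran from 153.6 to 160.2 TPM in the first library and from 145.8 to 152.3 TPM in the second. Just inside the minimum were 0610040B10Rik (1.00 and 1.49 TPM), Gm17233 (1.06 and 1.01 TPM) and B930036N10Rik (1.04 and 1.29 TPM). Just outside it were AC090479.2 (0.980 and 1.21 TPM), 4930481A15Rik (0.970 and 1.46 TPM) and Gm20234 (0.940 and 2.48 TPM). These genes differ little across the line, so the edge of the set is a convention.

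Annotation set the members apart from the candidates below the minimum in ways the choice did not use. Their median exonic length was 2147 bases, beside 937 bases. A single annotated transcript was listed for 35.7% of members and for 74.2% of the others. Genes with 1 exon made up 13.2% of members and 5.75% of the others. A coding gene on the same strand overlapped 6.20% and 2.20%. Of 83 members with more than 1 transcript, 66 had the same leading isoform in both libraries, and in 11 that isoform held at least 90% of the gene's TPM in both. Among the 20 highest members with several transcripts, Brip1os was the most concentrated, with 99.5 and 100% on 1 of 2. Tug1 spread over 8 transcripts, the first with 26.3 and 26.7%. At the gene level 112 members were typed antisense and 17 processed_transcript.

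Symbols of 14 members end in the way that names a sense gene, and 13 of those genes were found in the annotation. Zfas1, whose symbol stem matched no gene, is the exception. The sense gene was higher in both libraries in 10 pairs and the antisense gene in 3. The median difference, antisense minus sense on the log2(TPM + 1) scale, was -2.54. All 13 sense genes lie on the opposite strand of the same chromosome as their partner.

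The 3 pairs with the higher antisense gene differ in size. Rab10os (chromosome 12, 3235504 to 3250377, plus strand) meets Rab10, a small GTPase gene of vesicle transport, tail to tail, with 2950 bases in common. Rab10 stood at 18.4 and 21.5 TPM, so Rab10os was 1.34-fold higher in replicate 1 and 1.07-fold in replicate 2. Brip1os stood at 7.43 and 9.30 TPM, and the DNA repair helicase gene Brip1, which starts 177 bases away, at 5.72 and 6.08 TPM. Rab26os stood at 4.09 and 3.98 TPM, while Rab26, a GTPase gene of secretory granules, had 0.430 TPM from 10 reads and 0.05 TPM from 1 read. Because members had to reach 1 TPM, Rab26 was bound to be the lower of this pair. In the second deposited transcript table Rab26os itself had only 0.657 and 1.55 TPM. Its level therefore depends on how reads were assigned, and Snord60 lies within it. Rab26os also starts 310 bases from Traf7, which stood at 60.7 and 57.3 TPM.

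Among the 10 pairs with the higher sense gene, those of Jun, Sp3, Zeb2 and Runx2, all transcription factor genes, are given first. Junos (4.34 and 4.49 TPM) starts 688 bases from Jun, the AP-1 subunit gene, which stood at 218 and 374 TPM. Jun was thus 50.2-fold and 83.2-fold higher. Sp3os (4.02 and 4.58 TPM) crosses the start of Sp3, a gene of a GC-box binding factor at 87.3 and 82.9 TPM. Zeb2os lies inside Zeb2, a zinc-finger repressor gene of myeloid development at 161 TPM in both libraries, which was 15.6-fold and 19.4-fold higher than it. Runx2os2 (1.10 and 1.14 TPM) lies inside Runx2, best known in bone formation, which stood at 22.9 and 21.3 TPM. In each of these pairs the libraries did not overlap between the antisense and the sense gene. The same held for every pair named by symbol, so it does not set these apart.

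The other 6 pairs were Zfp335os (2.42 and 4.31 TPM, against 14.1 and 13.8 TPM for Zfp335), Zbtb11os1 (1.99 and 2.14 TPM, against 12.8 and 13.3 TPM) and Bcas3os1 (1.95 and 2.19 TPM, against 14.1 and 14.6 TPM). N4bp2os stood at 1.04 and 1.55 TPM and N4bp2 at 13.1 and 11.4 TPM. Tmem147os stood at 1.33 and 1.46 TPM and Tmem147, which starts 39 bases away, at 16.1 and 17.8 TPM. Hk1os stood at 1.80 and 3.01 TPM inside Hk1, the hexokinase gene of the first step of glycolysis, which stood at 39.1 and 42.8 TPM. The narrowest gap of the 6 was that of Zfp335os in replicate 2, where the sense gene was 3.21-fold higher.

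**Figure D2:**
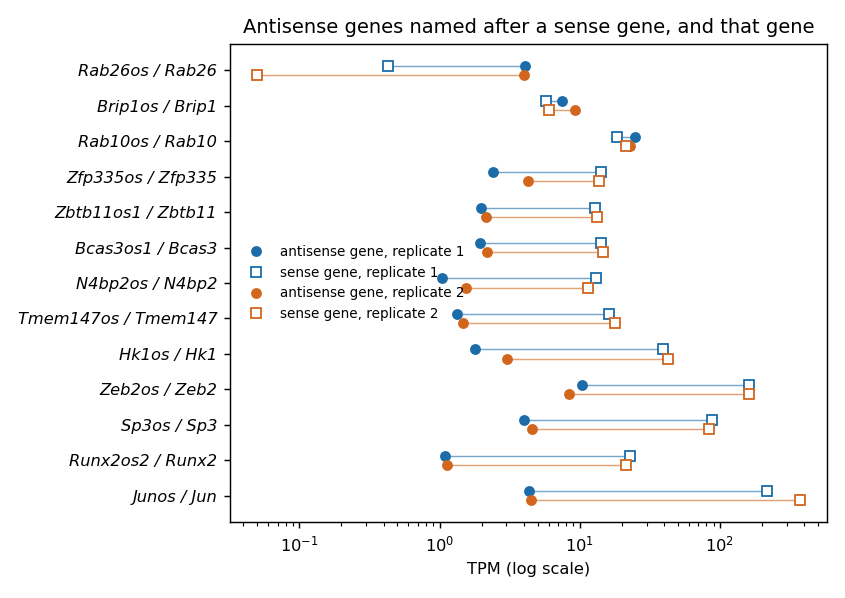
TPM on a log axis of the 13 antisense genes named after a sense gene (filled circles) and of that gene (open squares), in replicate 1 (blue) and replicate 2 (orange), joined by a line within each library. The circle lies to the right of the square in both libraries for Rab26os, Brip1os and Rab10os, and to the left in the other 10 pairs.

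By position, 120 members overlap a coding gene on the opposite strand whose TPM could be estimated. The gene with the longest overlap was higher in both libraries in 75 of these pairs, the antisense gene in 40, and 5 pairs differed between the libraries. Members had to reach 1 TPM in both libraries and the overlapped genes did not. A coding gene under 1 TPM in both was thus bound to be the lower, so the 40 pairs partly follow from the choice of members. The overlapped genes had medians of 15.7 and 15.3 TPM. In 88 of the 120 pairs (73.3%) the overlapped gene reached 1 TPM in both libraries, beside 50.2% of the 2735 pairs of candidates below the minimum. A gene overlapped by several candidates was counted once for each. Across the 120 pairs the levels of antisense and sense genes had a Spearman rho of 0.0787, a description over pairs that share both libraries. Only the antisense side was cut off at 1 TPM. Pi4kb is the overlapped gene of both Gm15265 and A730011C13Rik, so these 2 pairs are not independent.

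At the antisense side, Mirt2 exceeded Spatc1 by 153-fold and 171-fold, with 8 and 6 reads for Spatc1. 6330418K02Rik stood at 6.72 and 5.44 TPM across Gal3st4, a sulfotransferase gene with no reads, and 9330159M07Rik at 5.54 and 4.83 TPM across Trim43c, also with none. Against a floor of 3 reads per library these were at least 59.6-fold and at least 53.3-fold higher in both libraries. AC154538.2 (7.78 and 9.53 TPM) lies inside Dscam, a neuronal adhesion gene at 0.210 and 0.0800 TPM. In all of these the coding gene with the longest overlap had few reads or none. An expressed coding gene can still start beside such a member. 6330418K02Rik starts 10 bases from BC037034, which stood at 53.4 and 53.0 TPM.

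The rest of the pairs at that end had coding genes with few reads. 1810032O08Rik, a snoRNA host at 8.62 and 8.77 TPM, faced 3 and 2 reads of the sialyltransferase gene St6galnac2. Gm48529 stood at 7.08 and 4.40 TPM inside Tagln, a smooth muscle gene with 3 and 5 reads. Gm20658 stood at 5.72 and 3.72 TPM inside Vipr2, a neuropeptide receptor gene with 3 and 9 reads. 2010310C07Rik (3.16 and 2.76 TPM) faced 2 and 0 reads of the ephrin receptor gene Epha1. 1810021B22Rik (2.88 and 4.63 TPM) faced 0 and 3 reads of the channel gene Panx2. However, 1810021B22Rik also starts head to head with Trabd, which stood at 20.1 and 21.7 TPM. The antisense-typed gene under the symbol Trmt61b (2.54 and 1.85 TPM) faced 0 and 1 read of Spdya. With counts this small the folds are not given. The folds given above for Mirt2, 6330418K02Rik and 9330159M07Rik rest on counts of like size, so they too are uncertain.

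At the sense side stood histone and AP-1 genes, among others. Gm20632 (1.26 and 1.10 TPM) faced Hist2h2aa2 at 1472 and 1840 TPM, and Gm20628 (2.56 and 3.02 TPM) faced Hist2h3b at 1016 and 1402 TPM. Histone genes have near-identical copies among which reads can be split, so their own levels are uncertain. Gm11175 (2.09 and 4.68 TPM, from 14 and 30 reads) lies inside Jund, the AP-1 subunit gene at 240 and 349 TPM. Gm16575 (2.75 and 3.58 TPM) lies inside Sun2, a nuclear envelope gene at 252 and 245 TPM.

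Some of these genes lie across each other's exons. All 528 bases of the Hist2h2aa2 exons lie across exons of Gm20632, which had 55.6 and 46.7 reads against 11926 and 14396. All 877 exonic bases of Gm11175 lie across Jund exons, and it had 14 and 30 reads against 7110 and 9992. Over all members, 94 (72.9%) have exons across exons of a partner, beside 56.8% of the candidates below the minimum. In 8 members these make up 50% or more of the exonic bases. Whether a share of the reads of low members across highly expressed exons came from imperfect strand marking was not tested.

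**Figure D3:**
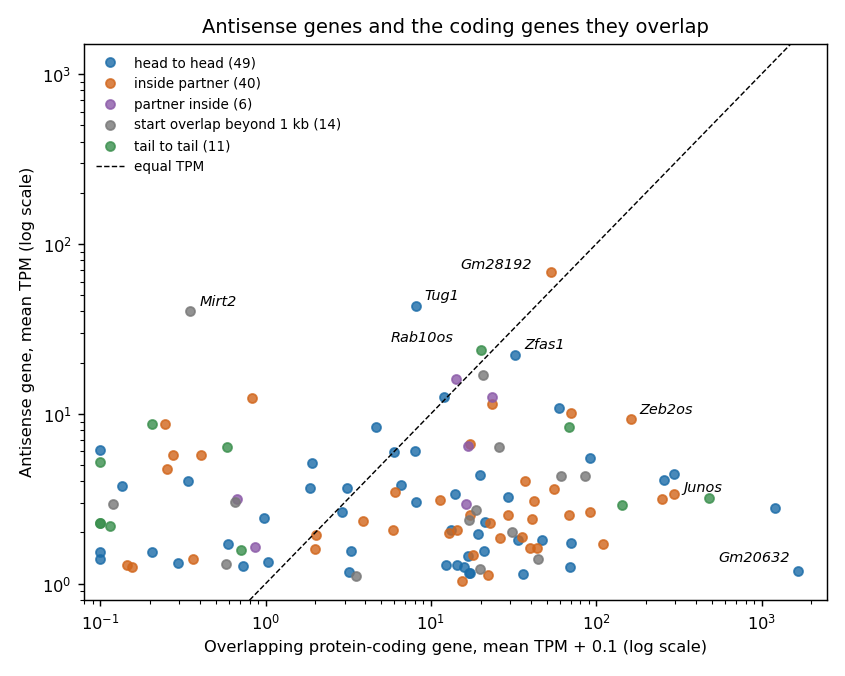
Mean TPM of 120 antisense genes against mean TPM + 0.1 of the coding gene with the longest overlap, on log axes, coloured by the position of the antisense gene, with a dashed line at equal TPM. Mirt2, Tug1 and Gm28192 lie above the line, Zfas1, Zeb2os and Junos below it, and the points show no common slope.

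Position relative to coding genes differed between members and the other candidates. A start within 1 kb of the start of an opposite-strand coding gene, called head to head, was found for 52 members (40.3%) and for 627 (21.2%) of the candidates below the minimum. Lying wholly inside the partner was the reverse, with 40 members (31.0%) against 1565 (52.9%). Tail-to-tail overlap took 11 members (8.53%) against 264 (8.92%), and 6 members (4.65%) had no coding gene on the opposite strand. Head-to-head members had medians of 2.12 and 2.37 TPM, and those inside a partner 2.65 and 2.35 TPM. The split describes where expressed members lie and not how high they are.

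**Figure D4:**
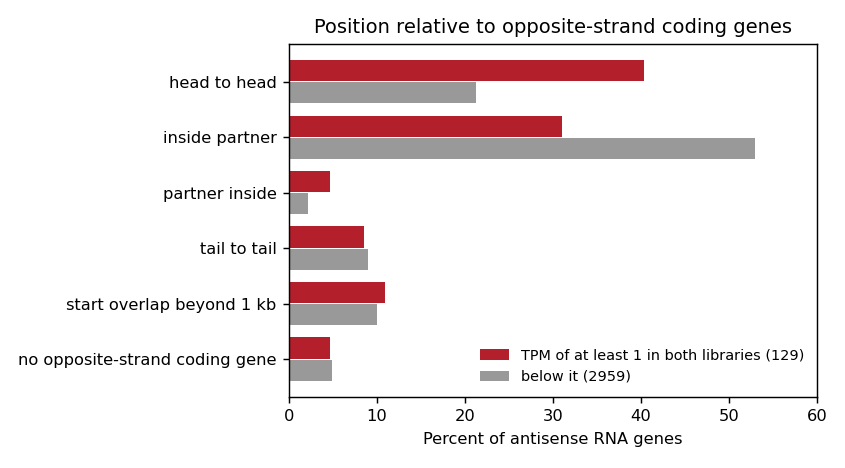
Percent of antisense RNA genes in each position relative to opposite-strand coding genes, for the 129 members (red) and the 2959 candidates below 1 TPM in a library (grey), as bars from 0. Head to head is 40.3% against 21.2%, and inside the partner 31.0% against 52.9%.

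In 49 of the 52 head-to-head pairs (94.2%) the coding neighbour reached 1 TPM in both libraries, beside 59.0% of the 627 pairs of the other candidates. The coding gene was higher in both libraries in 44 pairs, in 22 of them by at least 10-fold in each library, and the antisense gene in 5. Those 5 were Tug1, Gm36266, Brip1os, 2810402E24Rik and A930005H10Rik. The neighbours of Gm36266 (Pcolce, 0.280 and 0.610 TPM) and 2810402E24Rik (Usp54, 0.940 and 0.930 TPM) were under 1 TPM, so they were bound to be lower. A930005H10Rik stood at 4.08 and 3.20 TPM beside Dph5, a gene of diphthamide synthesis at 3.22 and 2.80 TPM. Gt(ROSA)26Sor, the locus widely used for transgene insertion in mouse, stood at 3.36 and 2.71 TPM and starts 32 bases from the chromatin gene Setd5 at 34.4 and 37.0 TPM. Gm37305, among the 10 members with most reads (315 and 320), stood at 3.98 and 4.19 TPM beside the cyclin gene Ccnl1 at 256 and 259 TPM.

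In 31 of the 52 pairs the genes overlap at their starts, and in 21 a stretch lies between the starts. Of these stretches 4 are shown from the RefSeq promoter table on GRCm38.p6 because these pairs span coding levels from that of Brip1 to that of Tpt1. Each reads 5′ to 3′ on the strand of the antisense gene. Capitals mark matches, on either strand, to the GC box GGGCGG, the CCAAT box CCAAT and the ETS core CGGAAG; matches may overlap. 3110056K07Rik and Arid4a (a gene of an RB-binding protein, 28.4 and 27.3 TPM) are separated by chr12:71015833-71015989, minus strand. Brip1os and Brip1 are separated by chr11:86201194-86201369, plus strand. 5430405H02Rik (5.98 and 6.01 TPM) and Rab5if (140 and 134 TPM) are separated by chr2:156862964-156863127, minus strand. Gm4285 (1.45 and 2.80 TPM) and Tpt1, the gene of translationally controlled tumour protein at 1061 and 1075 TPM, are separated by chr14:75844965-75845092, minus strand.
3110056K07Rik: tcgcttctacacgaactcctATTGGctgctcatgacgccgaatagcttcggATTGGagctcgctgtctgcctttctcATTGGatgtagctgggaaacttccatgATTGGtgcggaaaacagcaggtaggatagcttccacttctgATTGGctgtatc
Brip1os: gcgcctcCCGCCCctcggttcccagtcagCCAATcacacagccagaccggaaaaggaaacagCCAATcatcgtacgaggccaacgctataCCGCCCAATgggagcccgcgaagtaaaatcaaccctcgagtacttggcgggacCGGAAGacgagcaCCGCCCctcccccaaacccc
5430405H02Rik: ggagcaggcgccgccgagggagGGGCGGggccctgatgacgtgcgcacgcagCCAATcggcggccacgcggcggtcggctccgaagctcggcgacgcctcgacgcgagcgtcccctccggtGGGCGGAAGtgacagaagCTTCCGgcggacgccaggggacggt
Gm4285: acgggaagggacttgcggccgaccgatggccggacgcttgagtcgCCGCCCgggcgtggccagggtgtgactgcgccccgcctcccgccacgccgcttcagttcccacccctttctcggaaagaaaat

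The 3110056K07Rik window held 5 matches to CCAAT and none to the other motifs named. The Brip1os window held 3 to GGGCGG, 3 to CCAAT and 1 to CGGAAG. The 5430405H02Rik window held 2, 1 and 2, and the Gm4285 window 1 to GGGCGG alone. A match describes letters and not a bound site.

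RefSeq promoters, 300 bases each, were found for 55 of 129 members. GGGCGG lay in 64.0% of the 25 promoters of head-to-head members, in 30.0% of the 30 others and in 35.9% of all 27025 promoters. CGGAAG lay in 10 of the 25, 5 of the 30 and 17.2% of all, and CCAAT in 10, 11 and 37.9%. The median ratio of observed to expected CpG was 0.821 in head-to-head members, 0.454 in other members and 0.389 in all promoters. Other motifs searched differed less, such as GAGGAA (32.0, 33.3 and 28.3%) and TATAAA (12.0, 13.3 and 14.2%). In 1074 promoters of candidates below the minimum, GGGCGG lay in 26.3%, beside 45.5% of the 55, and the median CpG ratio was 0.312, beside 0.635. Head-to-head candidates among these were not counted apart. Each promoter ran from 250 bases upstream of the start to 50 bases downstream. A head-to-head promoter shares bases with that of its coding neighbour where a stretch lies between the starts. It also does so where the genes overlap only briefly at their starts. Where that overlap is longer the promoters share no bases, so these values describe both genes in some pairs only. How many of the 25 share bases was not counted.

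Each gene with 50 or more reads in both libraries together was compared between them by an exact conditional binomial test on rounded expected counts. Calls needed a 2-fold ratio and an adjusted p (Benjamini-Hochberg) no higher than 0.05. None of the 99 members tested was called, beside 2.25% of the 12434 genes tested (1.57% higher in replicate 2 and 0.684% lower). At an unadjusted p under 0.05, 22 members differed by any ratio and 0 by 2-fold, and edgeR's exact test also called 0. The share of all genes at that unadjusted p was not counted. The members had to reach 1 TPM in both libraries, which limits how far they could differ, so the count says nothing particular about them. The p-values measure counting error between these libraries and compare no conditions.

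Ratios within 2-fold were resolved for some members, not all of them deep. With no limit on the ratio, 10 members (10.1%) passed an adjusted p of 0.05, beside 24.3% of all genes tested. Of these members, 8 were lower and 2 higher in replicate 2. The sets differ in depth, with 200 reads or more for 41 of the 99 members and 9727 of the 12434 genes. Gm28192 was lower by a log2 ratio of -0.33 (interval -0.47 to -0.19, adjusted p = 3.03e-05 by the exact binomial test). Brip1os was higher by 0.31 (0.16 to 0.47, adjusted p = 7.77e-04), and Tug1 had -0.14 (-0.21 to -0.06, adjusted p = 0.00152). F630028O10Rik, with the most reads, differed by -0.06 (-0.11 to -0.02). For 76 of the 99 the counting interval lay inside 2-fold both ways. The median log2 ratio was -0.08 in the members. The median size of the log2 ratio was 0.214, beside 0.137 over all genes tested. Among genes with 50 to 100 reads it was 0.344 in members and 0.357 in all, and with 100 to 200 reads 0.251 and 0.266. From 200 reads on it was 0.166 and 0.115, but this class has no upper limit and depth within it was not matched.

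For Rab10os, reads and TPM went opposite ways. It had 1078 and 1179 reads (log2 ratio 0.17, interval 0.05 to 0.29) and 24.7 and 23.0 TPM. Its leading isoform differed between the libraries, with 30.8% of its TPM in replicate 1 and 45.4% in replicate 2, and its effective length was 2307 and 2806 bases. Gm12981 had the lowest ratio of the tested members, at -0.95 (-1.69 to -0.27) from 54 and 27 reads, and it runs along the same strand as Sesn2.

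**Figure D5:**
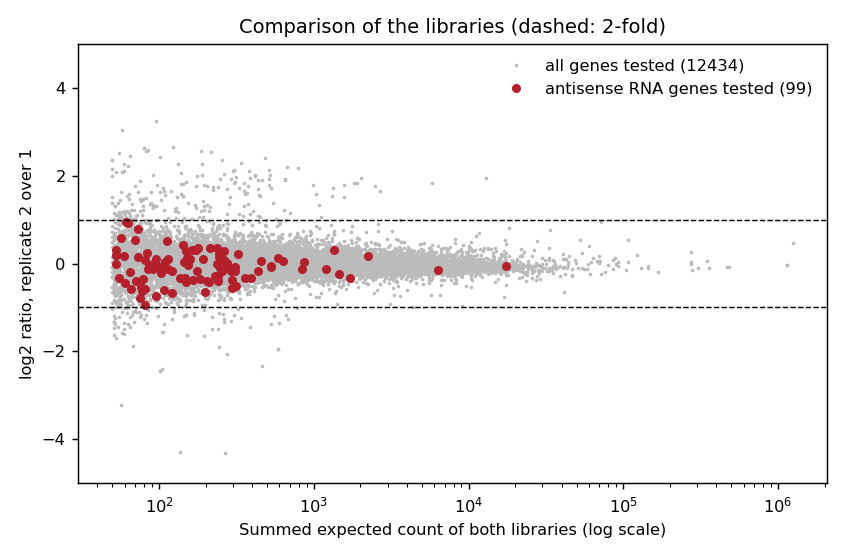
Log2 ratio of replicate 2 over replicate 1 against the summed expected count (log axis) for 12434 genes (grey) and for the 99 members tested (red), with dashed lines at 2-fold. The red points lie between the lines, and they narrow as the count grows.

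Ratios between the libraries were also set side by side for both genes of a pair. Among 73 overlapping pairs with both genes tested, 34 had ratios of the same sign. None of their sense genes was called, beside 2.25% of all genes tested, so with so few pairs this says nothing particular about them. Gm26577 lies inside Myb, the progenitor transcription factor gene, and had 122 and 76 reads, a log2 ratio of -0.64 (-1.08 to -0.22). Myb had 1482 and 1775 reads, a ratio of 0.30 (0.20 to 0.40). Jun had a ratio of 0.76 (0.73 to 0.80), while Junos, with 44 and 42 reads, had -0.03 (-0.68 to 0.61).

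Markers of other cells also differed between the libraries. Over all genes tested, 1.57% were called higher in replicate 2 and 0.684% lower. Of 8 erythroid markers, 7 were called higher in replicate 2, and their summed level was 47.4 and 143.9 TPM. Of 6 B cell markers, 4 were called lower, with sums of 199.1 and 143.7 TPM. Col1a1 and Col1a2, 2 of 5 endothelial and stromal markers, were called higher, and the list summed to 44.1 and 151.2 TPM. That rise lay in these 2 collagen genes. Pecam1 (4.52 and 4.76 TPM) was not called, and Cdh5 and Col3a1 had too few reads to be tested. No monocyte marker was called (sums of 1932 and 1723 TPM), nor was a T cell marker, of which 1 of 5 had enough reads to be tested and Cd3e was listed at 0 in replicate 2. The part of these cells in the differences of Gm26577 and the other members was not tested. In bulk RNA, fewer cells of a type and less RNA per cell cannot be told apart.

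Genes whose products remove unstable nuclear RNA or act on double-stranded RNA were expressed as well. Of 18 matched genes of nuclear RNA surveillance, mostly genes of the exosome and its cofactors, 18 reached 1 TPM and 0 were called. The list medians were 15 and 14.9 TPM. The nuclear poly(A) binding protein gene Pabpn1 was highest at 71.3 and 68.8 TPM, and the exosome subunit gene Exosc4 lowest at 4.86 and 5.39 TPM. Of 16 genes of double-stranded RNA sensing and editing, 14 reached 1 TPM and 0 were called, with medians of 8.60 and 9.43 TPM. Over all genes tested 2.25% were called, so 0 calls in lists this short say nothing particular about them. The Argonaute gene Ago2 was highest at 50.6 and 49.1 TPM and the editing gene Adar stood at 32.3 and 29.9 TPM. The editing gene Adarb1 (0.10 and 0.18 TPM) and the receptor gene Tlr3 (0.170 and 0.160 TPM) were below the minimum.

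The second transcript table, estimated from the reads by another route, mostly gave like levels. It put 122 of 129 members at 1 TPM or more in both libraries, and 105 of the 129 lay within 1.5-fold of the gene table by mean TPM, with a Spearman rho of 0.860 across members. Rab26os and 2900060B14Rik had under 0.5 times the gene-table level. Another 9 had over 2 times that level, led by 4933439K11Rik, with 9.73 and 10.6 TPM against 1.43 and 1.72 TPM, and by Gm20400, with 19.7 and 20.3 TPM against 7.01 and 4.45 TPM. For these 11 genes the level rests on the estimator.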

How the data were processed

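Per the deposited file lists, the authors estimated expected counts and TPM per gene on mm10 with annotation M21; their programs are not stated in the sources used here. The deposited percent values give each transcript's share of its gene's TPM. A second deposited transcript table gave estimated counts and TPM, summed per gene here. Counts were rounded for the tests; totals were 18836093 and 18444369, features that name no gene held 0.261 and 0.274% of reads and stayed out, as did 356 ribosomal RNA genes. Members and gene lists were chosen with earlier results of these data known. The genes named are the 15 highest members, the 10 with most reads, all pairs named by symbol, any called, the 10 largest and 5 smallest overlap ratios (0 reads set to a floor of 3 per library; 1 of these pairs is not reported here), 3 on each side of the minimum and the list extremes; members with a role known from textbooks, and a few pairs singled out after their values were seen, such as Gm26577 with Myb, are named too. Overlapped genes without an effective length were passed over. Ratios had 0.5 added to each count, and intervals are exact Clopper-Pearson at 95%. The test of the library comparison was tried on simulated data. There 99 of 100 genes changed 2.5-fold, 100 of 100 changed 3-fold and 2 of 12256 unchanged genes were called. Only genes with 200 or more reads in both libraries together were changed, a depth that 41 of the 99 members tested had. The simulation held counting error alone, so calls at lower depth or with further spread were not tried. Alternatives used edgeR 4.0.16 and DESeq2 1.42.0 (R 4.3.3); the rest used Python 3.11.15 with scipy 1.17.1, pandas 2.3.3, numpy 2.4.6 and, for plots, matplotlib 3.10.9.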

Additional observations from a re-analysis of the deposited data

How the results depend on the processing

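The size of the set depended on the threshold and the estimator: 129 genes became 216 at a minimum of 0.5 TPM, 69 at 2 TPM and 253 by the second transcript table, 122 of them shared with the 129. With the minimum in 1 library alone it was 158 without replicate 1 and 161 without replicate 2. The members' share of TPM was 0.0799% and 0.0908% by the second table. Head-to-head members numbered 52 within 1 kb and 27 within 300 bases, where the candidates below the minimum had 9.83% and the members 20.9%. The 280 genes called between the libraries became 543 with a summed count of at least 10, where more genes were tested, and 173 with edgeR's exact test. Members called stayed at 0 under all 5 alternatives. The median difference of the 13 pairs named by symbol was -2.54, and -3.17 with a pseudocount of 0.1, with -2.29 to -2.79 when a library was left out; 3 antisense genes were higher in both libraries under each estimate. Against all coding genes that overlap or lie within 1 kb, 27 of 123 antisense genes were higher, beside 40 of 120. In both counts a coding gene under 1 TPM in both libraries was bound to be lower. Settings chosen after seeing the data gave 89 genes by the lower interval bound and 121 without same-strand coding overlap. Depth left 30 members with too few reads to be tested; all 129 were tested at a summed count of 10. No paired analysis was possible because there is 1 group.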
